A study of Homo sapiens with 24 samples.

Results

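KLHL24 and the 5 genes of the YPEL family, YPEL1 to YPEL5, were followed through the response of 4 gastrointestinal cancer cell lines to melatonin. These 6 of 18244 genes were taken up because of how KLHL24 and YPEL5 behaved in these same arrays, so their differences between melatonin and control are given as a description without a test. Each gene is the mean of the probe sets that carry its symbol alone, 14 probe sets in all, and the single probe sets are described as well. The lines were HGC-27 (gastric), HCT-8 (colorectal) and Huh-7 and HepG2 (both liver). In each, 3 melatonin arrays were set against 3 control arrays, which the methods call biological replicates. Melatonin cells had received 2.5 mmol/L for 24 h. The methods describe the controls as kept in ethanol alongside them, whereas the labels put the controls at 0 h of melatonin, so that the hours in culture, the solvent and melatonin cannot be told apart. All cells were wild type, and every group comes from a single established line.

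KLHL24 is a Kelch-like protein, one of a large family whose BTB domain holds the CUL3 ubiquitin ligase and whose Kelch domain holds the protein to be marked. It is known for keratin 14 in skin and desmin in heart muscle, intermediate filament proteins whose amount it limits. YPEL proteins are small zinc-binding proteins conserved from yeast to humans. YPEL3 was described as a growth-suppressing target of p53, and YPEL5 is a component of the CTLH complex, another kind of ubiquitin ligase that is built as a ring of several subunits.

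The lines were checked against their marker genes. All 8 liver markers measured stood above the array median in Huh-7 and HepG2 cells, 6 of 7 intestinal markers did so in HCT-8 cells, and 0 of 5 stomach markers did so in HGC-27 cells, where 4 of 5 mesenchymal markers in the melatonin group and 5 of 5 in the control group stood above it. Markers of other tissues stood above it too. In both groups these were 3 of 7 intestinal, 2 of 5 stomach and 1 of 5 mesenchymal markers in Huh-7 cells. In HCT-8 cells they were 1 of 8 liver, 2 of 5 stomach and 1 of 5 mesenchymal markers. In HepG2 cells they were 1 of 7 intestinal and 2 of 5 mesenchymal markers, and in HGC-27 cells 1 of 7 intestinal markers. Array medians over probe sets ran from 2.13 to 3.33 log2 units and lay close together within a line. One array stood apart: HepG2 melatonin replicate 1 correlated with the other HepG2 arrays at 0.938 to 0.953, and the 3′ probe set of the ACTB control exceeded its 5′ probe set by 8.34 log2 units there, whereas this gap was 0.08 to 0.72 elsewhere. For GAPDH the gap was 7.72 on that array and -0.18 to 0.07 elsewhere. HepG2 results are therefore given with and without it.

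KLHL24 and YPEL5 were higher with melatonin in every line, YPEL3 and YPEL1 too but by less in some, YPEL2 in all but HCT-8 cells, and YPEL4 in none. The 3 melatonin arrays lay wholly above the 3 controls for 4 of 6 genes in HCT-8, 5 of 6 in HGC-27, 5 of 6 in Huh-7 and 5 of 6 in HepG2 cells. So it was for 21.5%, 24.9%, 26.3% and 20.4% of all 18244 genes in these lines. None of the 6 lay wholly below, as did 24.2%, 24.2%, 33.2% and 15.1% of all genes. At a limma adjusted p of 5% the genes counted as higher were 4 in HCT-8, 5 in HGC-27, 5 in Huh-7 and 4 in HepG2 cells, beside 16.6%, 20.9%, 23.8% and 3.87% of all genes (16.5% in HepG2 cells without melatonin replicate 1). Because these genes were picked from the same contrast, nothing is read from these counts. The median difference over the 6 genes was 0.64 log2 units in HCT-8, 0.62 in HGC-27, 1.88 in Huh-7 and 1.31 in HepG2 cells (1.44 without melatonin replicate 1). Over all genes it was -0.03, -0.01, -0.06 and 0.04 (0.01). In RNA from whole cultures, more RNA per cell and a larger share of expressing cells cannot be told apart.

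**Figure D1:**
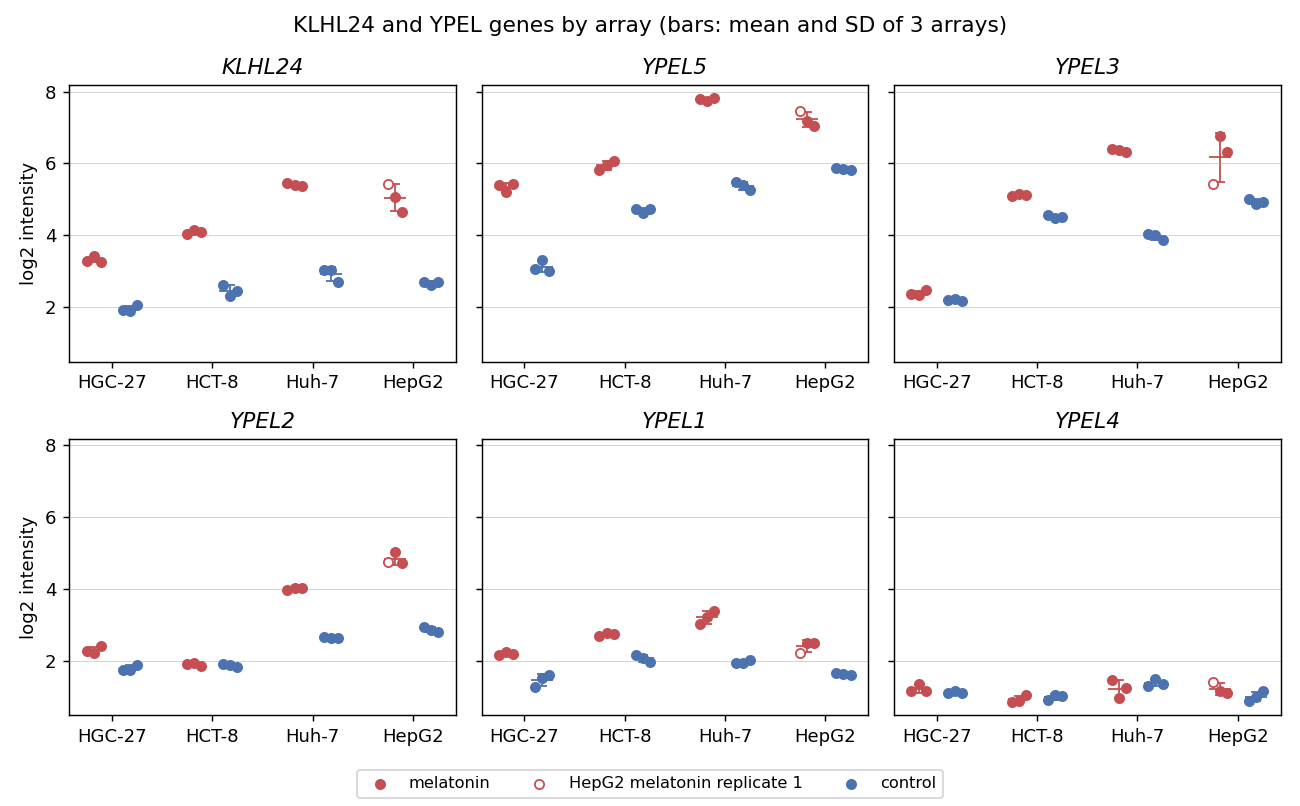
Log2 intensity (vertical axis) of each gene on all 24 arrays, with the melatonin arrays left of the control arrays in each line and bars for the mean and SD of 3 arrays. KLHL24 and YPEL5 are separated in all 4 lines, YPEL4 in none, and the open point marks HepG2 melatonin replicate 1, which reads 5.43 for YPEL3 where the other melatonin arrays read 6.77 and 6.32.

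The promoter sequences are shown so that the genes can be compared letter by letter. They are the 250 bases before the RefSeq start (GRCh38.p14), 5′ to 3′ on the strand of the gene, for the 5 of 6 genes with an entry. Capitals mark CCAAT or its reverse ATTGG and GGGCGG or its reverse CCGCCC. KLHL24 lies at chr3:183635373-183635622 on the plus strand, YPEL5 at chr2:30146757-30147006 on the plus strand and YPEL3 at chr16:30096214-30096463 on the minus strand. YPEL2 lies at chr17:59331405-59331654 on the plus strand and YPEL4 at chr11:57649913-57650162 on the minus strand.
KLHL24: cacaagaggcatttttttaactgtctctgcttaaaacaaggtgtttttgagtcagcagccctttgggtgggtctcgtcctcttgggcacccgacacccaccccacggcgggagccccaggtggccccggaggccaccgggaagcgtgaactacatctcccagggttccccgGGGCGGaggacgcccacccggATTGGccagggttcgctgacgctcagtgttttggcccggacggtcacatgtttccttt
YPEL5: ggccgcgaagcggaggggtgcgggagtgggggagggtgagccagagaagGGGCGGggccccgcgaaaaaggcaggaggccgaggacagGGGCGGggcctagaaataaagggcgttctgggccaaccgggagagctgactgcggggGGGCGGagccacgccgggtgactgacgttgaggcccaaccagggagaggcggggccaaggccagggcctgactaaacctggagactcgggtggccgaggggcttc
YPEL3: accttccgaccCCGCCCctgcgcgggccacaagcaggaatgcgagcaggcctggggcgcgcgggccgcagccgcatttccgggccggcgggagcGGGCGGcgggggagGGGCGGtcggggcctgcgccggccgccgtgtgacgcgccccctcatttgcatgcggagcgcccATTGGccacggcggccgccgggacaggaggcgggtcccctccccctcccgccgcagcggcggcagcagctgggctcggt
YPEL2: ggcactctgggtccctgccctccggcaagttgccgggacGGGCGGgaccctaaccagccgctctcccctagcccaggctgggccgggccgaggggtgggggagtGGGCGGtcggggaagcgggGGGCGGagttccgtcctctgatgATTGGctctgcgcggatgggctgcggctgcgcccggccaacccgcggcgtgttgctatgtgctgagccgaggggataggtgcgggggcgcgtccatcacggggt
YPEL4: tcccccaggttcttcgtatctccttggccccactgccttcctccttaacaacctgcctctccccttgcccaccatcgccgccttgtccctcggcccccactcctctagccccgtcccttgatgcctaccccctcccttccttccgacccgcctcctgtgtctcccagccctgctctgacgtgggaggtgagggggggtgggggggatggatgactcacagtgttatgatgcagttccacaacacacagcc

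Searched over 300 bases, from 250 before to 50 after the start and on both strands, were GTAAACA (the forkhead core), CACGTG (the E-box), TGATGCAA, TGACGTCA, CCAAT and GGGCGG. The E-box and TGACGTCA read the same on both strands, and no 2 matches overlapped in these genes. Of 35116 promoters of this length, 3.42% held GTAAACA, 7.26% CACGTG, 0.866% TGATGCAA, 1.85% TGACGTCA, 34.6% CCAAT and 45.0% GGGCGG. KLHL24 held 1 CCAAT and 1 GGGCGG, which lie at bases -58 to -54 and -79 to -74 from the start. YPEL2 held 1 CCAAT with 3 GGGCGG, and YPEL5 held 3 GGGCGG and none of the other motifs. YPEL3 held 1 CCAAT, 3 GGGCGG and 1 GTAAACA, the last at bases 1 to 7 after the start and so outside the stretch printed. YPEL4 held none of the 6 motifs. The share of G and C over the printed bases was 60.8% for KLHL24, 70.8% for YPEL5, 79.6% for YPEL3, 73.2% for YPEL2 and 63.2% for YPEL4. The median over the same 250 bases of all promoters was 58%, with quartiles at 46.4% and 68%. These matches describe letters, not sites of binding, and any part of them in the differences was not tested.

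KLHL24, the CUL3 adaptor, ranked among the highest differences of every line. In HGC-27 cells it read 3.29, 3.42 and 3.26 log2 units on the melatonin arrays and 1.91, 1.90 and 2.04 on the control arrays. In HCT-8 cells the melatonin arrays gave 4.04, 4.14 and 4.10 and the control arrays 2.60, 2.30 and 2.45. Both lines kept a clear gap between the groups, of 1.22 in HGC-27 and 1.44 in HCT-8 cells. In Huh-7 cells the values were 5.46, 5.40 and 5.36 with melatonin and 3.02, 3.04 and 2.69 in controls. HepG2 cells gave 5.42, 5.07 and 4.66 with melatonin and 2.69, 2.60 and 2.69 in controls. The melatonin arrays of HepG2 spread most (SD 0.38), yet the lowest of them lay 1.97 above the highest control. The differences were 1.64 (standard error 0.08) in HCT-8, 1.37 (0.06) in HGC-27, 2.49 (0.09) in Huh-7 and 2.39 (0.19) in HepG2 cells. They correspond to 3.12, 2.59, 5.62 and 5.24-fold. Counted from the highest of 18244 genes, KLHL24 came 8th in HCT-8, 53rd in HGC-27, 28th in Huh-7 and 1st in HepG2 cells. Without HepG2 melatonin replicate 1 its difference there was 2.20 (4.60-fold), the 2nd highest.

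The 3 probe sets of KLHL24 agreed in direction, and each separated the groups in all 4 lines. Probe set 11729691_a_at differed by 1.84 in HCT-8, 1.98 in HGC-27, 3.17 in Huh-7 and 2.49 in HepG2 cells. Probe set 11756440_a_at gave the smallest HGC-27 value, 0.81, and differed by 2.20 in Huh-7, 2.20 in HepG2 and 1.45 in HCT-8 cells. Probe set 11757390_s_at, whose suffix marks probes that can also match related sequences, gave 1.64 in HCT-8, 1.33 in HGC-27, 2.10 in Huh-7 and 2.48 in HepG2 cells. In size, though not in direction, the difference thus varied with the probe set, most in HGC-27 cells.

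YPEL5, the CTLH component, had larger differences in HGC-27 and Huh-7 cells than in HCT-8 and HepG2 cells. On the melatonin arrays of HGC-27 it read 5.39, 5.21 and 5.43, against 3.06, 3.32 and 3.01 on the control arrays. On those of HCT-8 it read 5.83, 5.96 and 6.07, against 4.74, 4.63 and 4.73 in controls. The gap between the groups was wider in HGC-27 (1.90) than in HCT-8 cells (1.09). Huh-7 cells read 7.80, 7.75 and 7.83 with melatonin and 5.47, 5.41 and 5.26 in controls. HepG2 cells read 7.46, 7.17 and 7.06 with melatonin and 5.87, 5.85 and 5.82 in controls, and again no array crossed over. Melatonin minus control was 1.25 (standard error 0.07) in HCT-8, 2.22 (0.09) in HGC-27, 2.41 (0.07) in Huh-7 and 1.38 (0.12) in HepG2 cells, or 2.39, 4.65, 5.33 and 2.61-fold. YPEL5 was the 21st highest of all genes in HCT-8, the 6th in HGC-27, the 31st in Huh-7 and the 71st in HepG2 cells. Without HepG2 melatonin replicate 1 the HepG2 difference was 1.27 (2.41-fold). Both of its probe sets separated the groups in every line, 11715986_s_at by 1.11 to 2.18 and 11752620_s_at by 1.34 to 2.73. Both carry the suffix for probes that can match related sequences.

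**Figure D2:**
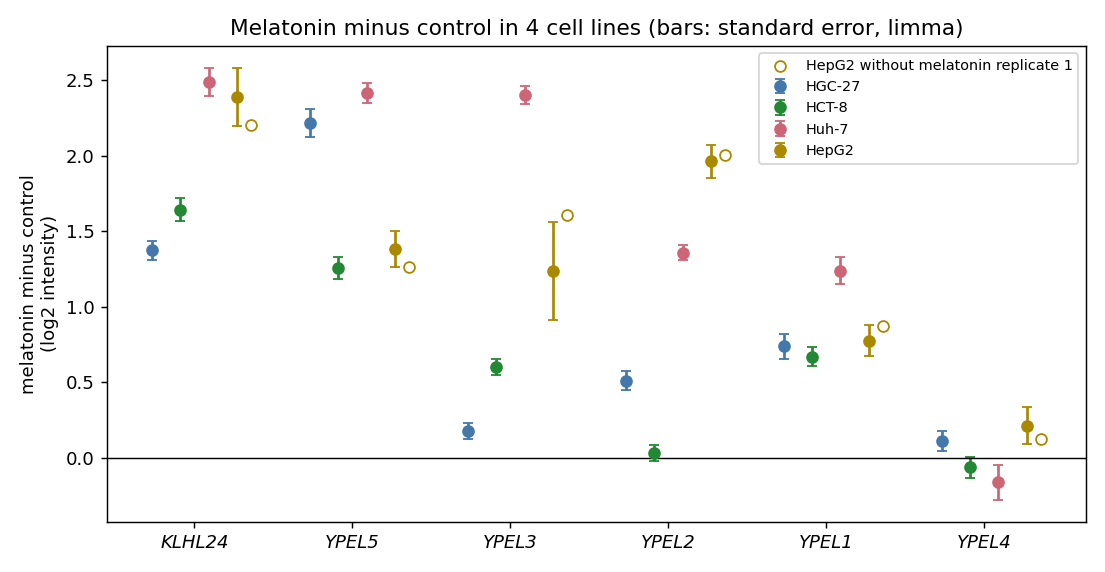
Melatonin minus control in log2 intensity (vertical axis) for the 6 genes in 4 lines, with the limma standard error as bars and HepG2 without melatonin replicate 1 as open circles. KLHL24 lies between 1.37 and 2.49 and YPEL5 between 1.25 and 2.41, while YPEL4 stays between -0.16 and 0.21.

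YPEL3, the growth suppressor, differed most in size from line to line. Huh-7 cells had 6.42, 6.36 and 6.33 with melatonin and 4.05, 3.99 and 3.86 in controls, a difference of 2.40 (standard error 0.06, 5.29-fold). HCT-8 cells had 5.10, 5.15 and 5.13 with melatonin and 4.56, 4.49 and 4.52 in controls, a difference of 0.60 (0.05). In HGC-27 cells the melatonin arrays at 2.36, 2.32 and 2.46 cleared the control arrays at 2.21, 2.24 and 2.17 by only 0.09, and the difference was 0.18 (0.05). These lines thus ordered as Huh-7, HCT-8 and HGC-27. HepG2 melatonin arrays read 5.43, 6.77 and 6.32, against 5.01, 4.87 and 4.93 in controls. The groups did not overlap, but replicate 1 lay 1.12 below the mean of the other melatonin arrays, toward the low end of the same difference over all genes, whose 5th and 95th percentiles were -1.28 and 0.83. The HepG2 difference was 1.24 (0.33) with that array and 1.61 without it (3.05-fold), which moved YPEL3 to the 16th highest gene of HepG2 where it had been the 118th.

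The low YPEL3 reading lay in 2 of 3 probe sets. On HepG2 melatonin replicate 1, probe set 11721355_a_at read 4.49, where the other melatonin arrays read 6.34 and 5.95 and the controls 4.46, 4.36 and 4.48. Probe set 11726780_x_at read 4.50, where the other melatonin arrays read 6.46 and 5.95 and the controls 4.58, 4.43 and 4.43. On both, this melatonin array thus sat at the level of the controls. Probe set 11721356_s_at read 7.29, 7.51 and 7.07 on the 3 melatonin arrays and 5.99, 5.83 and 5.87 on the controls, with replicate 1 inside the range of the other melatonin arrays. The same array shows the 3′ to 5′ gap of the ACTB and GAPDH control probe sets given above, and the part of that gap in the YPEL3 readings was not tested. In Huh-7 cells all 3 probe sets separated the groups, by 2.84, 1.70 and 2.67 in the order 11721355_a_at, 11721356_s_at and 11726780_x_at. In HGC-27 cells only 11721355_a_at did, by 0.24, while the arrays overlapped for 11721356_s_at (0.23) and 11726780_x_at (0.06).

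YPEL2 was higher in HepG2, Huh-7 and HGC-27 cells and not in HCT-8 cells. HepG2 cells had 4.75, 5.02 and 4.72 with melatonin and 2.94, 2.86 and 2.80 in controls, a difference of 1.96 (standard error 0.11, 3.90-fold, and 4.01-fold without melatonin replicate 1) that was the 6th highest of all genes. Huh-7 cells had 3.96, 4.04 and 4.02 with melatonin and 2.66, 2.64 and 2.64 in controls, a difference of 1.36 (0.05). HGC-27 cells had 2.26, 2.22 and 2.39 with melatonin and 1.73, 1.73 and 1.88 in controls, a difference of 0.51 (0.06). In HCT-8 cells the arrays overlapped, at 1.90, 1.92 and 1.85 with melatonin and 1.91, 1.86 and 1.82 in controls, and the difference was 0.03 (0.05). Its probe sets did not agree. Probe sets 11721957_at and 11721959_at differed by 2.84 and 2.72 in HepG2 and by 2.25 and 1.81 in Huh-7 cells. By contrast 11721958_at differed by 0.33 and 0.02 there and its arrays overlapped. In HepG2 cells its melatonin arrays read 1.68, 2.42 and 2.41 and the controls 1.89, 1.92 and 1.72, so only replicate 1 overlapped. Without that array the HepG2 differences were 2.76 for 11721957_at, 2.69 for 11721959_at and 0.57 for 11721958_at. In HCT-8 cells 11721958_at was lower, with 1.04, 1.20 and 1.22 on the melatonin arrays and 1.37, 1.40 and 1.37 on the controls, while 11721957_at was higher by 0.27. In HepG2 and Huh-7 cells the mean for YPEL2 thus averages probe sets with large differences and a probe set with a much smaller one.

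YPEL1 was higher in all 4 lines by smaller amounts. Huh-7 cells read 3.01, 3.21 and 3.39 with melatonin and 1.93, 1.94 and 2.01 in controls. HepG2 cells read 2.22, 2.50 and 2.50 with melatonin and 1.66, 1.63 and 1.59 in controls. HGC-27 cells read 2.16, 2.24 and 2.19 with melatonin and 1.26, 1.53 and 1.60 in controls. In these and in HCT-8 cells, with 2.69, 2.77 and 2.75 on melatonin arrays and 2.16, 2.07 and 1.97 on controls, the groups did not overlap. The differences were 1.24 (standard error 0.09) in Huh-7, 0.78 (0.10) in HepG2 (0.87 without melatonin replicate 1), 0.74 (0.08) in HGC-27 and 0.67 (0.06) in HCT-8 cells. Probe set 11756277_a_at differed more than 11726429_a_at in every line, by 2.06 against 0.42 in Huh-7 and by 0.80 against 0.54 in HCT-8 cells.

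YPEL4, measured by 1 probe set, stayed near the bottom of the scale. Its 24 readings ran from 0.85 to 1.49, and the melatonin and control arrays overlapped or met in every line. The differences were -0.06 (standard error 0.07) in HCT-8, 0.11 (0.06) in HGC-27, -0.16 (0.12) in Huh-7 and 0.21 (0.12) in HepG2 cells (0.12 without melatonin replicate 1). The direction turned in HCT-8 cells to 0.18 and in HepG2 cells to -0.02 when the arrays were centred on an ERCC spike-in probe set. At so low a signal a change may not be detectable.

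**Figure D3:**
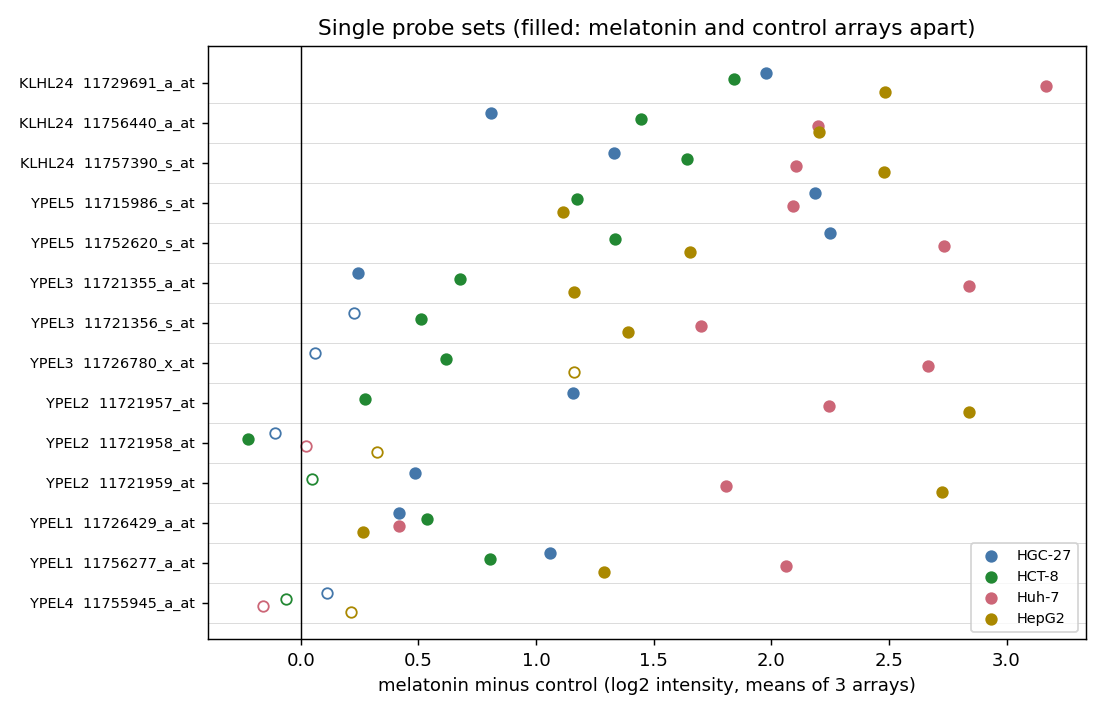
Melatonin minus control (horizontal axis, log2 intensity, means of 3 arrays) for the 14 probe sets, with filled points where the melatonin and control arrays did not overlap. The 3 probe sets of KLHL24 and both of YPEL5 lie above 0 in all 4 lines, while 11721958_at of YPEL2 lies from -0.23 to 0.33.

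Levels in control cells were compared between lines as the percentile of a gene among the 18244 genes of its own control arrays, since the lines look normalized apart from each other. KLHL24 stood highest in HCT-8 (median percentile 53.0, range 51.2 to 54.8), then in HepG2 (48.7, 47.5 to 48.7) and Huh-7 (48.1, 43.3 to 48.1), which overlapped, and lowest in HGC-27 cells (36.4, 35.7 to 38.4). With melatonin its median percentiles were 70.9 in HCT-8, 75.2 in HepG2, 75.4 in Huh-7 and 53.0 in HGC-27 cells. YPEL5 controls ordered as HepG2 (82.9), HCT-8 (78.5), Huh-7 (76.0) and HGC-27 (51.4) with no overlap between neighbours. With melatonin YPEL5 reached 94.5 in Huh-7, 93.1 in HepG2, 88.8 in HCT-8 and 77.0 in HGC-27 cells. YPEL3 controls ordered as HCT-8 (76.5), HepG2 (73.8), Huh-7 (60.2) and HGC-27 (41.3), again without overlap. YPEL2 stood highest in HepG2 controls (50.6) and YPEL1 in HCT-8 controls (48.0). For YPEL1 the HepG2 (32.2) and Huh-7 (30.2) controls overlapped. For YPEL4, highest in HCT-8 controls (21.1), HepG2 (8.2) overlapped with both Huh-7 (12.3) and HGC-27 (7.6). HGC-27 had the lowest median for all 6 genes.

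Genes whose 4 differences lay closest to those of a member were named by the root mean square of the 4 gaps in log2 units, among 7466 genes that reached the all-gene median in at least 1 group of each line. For KLHL24 the nearest were the nuclear RNA MALAT1 (0.49), LIPT2-AS1 (0.51), CEP19 (0.55), H2BC5 (0.55) and NUPR1 (0.55). Without HepG2 melatonin replicate 1 they were H2BC5, RSPH3, ARRDC3, DDIT4 and NUPR1 (0.50 to 0.55), so only H2BC5 and NUPR1 stayed on that list. For YPEL5 the nearest were CEP19 (0.26), ANKRA2 (0.28), LIPT2-AS1 (0.33), NUDT7 (0.39) and SMIM14 (0.42). CEP19 differed by 1.10 in HCT-8, 2.16 in HGC-27, 2.58 in Huh-7 and 1.85 in HepG2 cells (1.53 without melatonin replicate 1). Without that array CEP19 stayed nearest to YPEL5 (0.17), and DDIT3 (0.32) took the place of SMIM14 among the 5. For YPEL3 they were MFSD6 (0.19), POLR3GL (0.21), KCTD18 (0.25), MOAP1 (0.31) and SERTAD1 (0.31). Without the HepG2 array the same 5 genes came in another order, SERTAD1 (0.30), MOAP1 (0.32), MFSD6 (0.34), POLR3GL (0.38) and KCTD18 (0.42). The gap between KLHL24 and YPEL5 themselves was 0.69, between YPEL2 and YPEL3 0.72 and between KLHL24 and YPEL4 2.02. These figures describe 4 lines and 24 shared arrays.

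The CTLH complex, to which YPEL5 belongs, was measured in 10 genes besides YPEL5. This list and those below were chosen with earlier results of these data known. RANBP9, WDR26 and RMND5A rose and MAEA fell in HCT-8, HGC-27 and Huh-7 cells, and in HepG2 cells these 4 genes differed in the same directions but passed the threshold only without melatonin replicate 1. In all, 4 genes were higher and 1 lower in HCT-8, 5 and 1 in HGC-27, 5 and 2 in Huh-7, and 1 and 0 in HepG2 cells, where 6 and 1 passed without melatonin replicate 1 (limma, Benjamini-Hochberg adjusted p of 5% over all genes). None of the 10 was lower in HepG2 cells at an unadjusted limma p of 5% or with the methods' t-test either (0 and 0). Of all genes 16.6% were called higher and 15.0% lower in HCT-8, 20.9% and 18.6% in HGC-27, 23.8% and 27.4% in Huh-7, and 3.87% and 3.68% in HepG2 cells (16.5% and 14.9% without the array). The median difference of the list was 0.21, 0.12, 0.24 and 0.47 (0.40), in the same order of lines. RANBP9, the scaffold of the complex, averaged 8.64 with melatonin and 7.91 in controls of Huh-7 cells, a difference of 0.74 (limma adjusted p = 2.75e-05). In HGC-27 and HCT-8 cells RANBP9 rose by 0.53 and 0.49, and in HepG2 cells its difference of 0.56 missed the threshold (limma adjusted p = 0.0546, 0.0028 without melatonin replicate 1). WDR26, a subunit that recruits substrates and to which YPEL5 binds, rose by 0.67 in HCT-8, 0.27 in HGC-27 and 0.36 in Huh-7 cells, the last call being lost under ERCC centring. Its HepG2 difference was 0.74 (limma adjusted p = 0.0671) and 0.54 without melatonin replicate 1 (limma adjusted p = 7.35e-04).

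The catalytic RING subunits moved both ways. RMND5A rose by 0.22 in HCT-8, 0.58 in HGC-27 and 0.57 in Huh-7 cells, and its close relative RMND5B by 0.61 in HGC-27 and 0.61 in Huh-7 cells. In HepG2 cells RMND5A differed by 0.38 (limma adjusted p = 0.104), and by 0.48 without melatonin replicate 1 (limma adjusted p = 9.54e-04). RMND5B differed there by 0.72 (limma adjusted p = 0.0562), and by 0.56 without that array (limma adjusted p = 0.00419). MAEA, the RING partner of both, averaged 6.32 with melatonin and 6.71 in controls of HGC-27 cells, a difference of -0.39 (limma adjusted p = 1.78e-04). It fell by 0.34 in HCT-8 and by 0.36 in Huh-7 cells. In HepG2 cells MAEA differed by -1.44 with a standard error of 0.89 (limma adjusted p = 0.419) and by -0.33 without melatonin replicate 1 (limma adjusted p = 0.00333). Under ERCC centring MAEA kept its direction but missed the threshold in HGC-27 and HCT-8 cells.

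Among the remaining subunits, GID4, a substrate receptor, rose by 0.18 in HGC-27 and 0.47 in Huh-7 cells, though the HGC-27 call was lost under either centring. In HepG2 cells GID4 differed by 0.57 (limma adjusted p = 0.129), and by 0.37 without melatonin replicate 1 (limma adjusted p = 0.00514). MKLN1, the Kelch-repeat subunit muskelin, rose by 0.23 in HCT-8 and 0.81 in HepG2 cells (limma adjusted p = 0.0102 in HepG2) and differed by -0.04 in HGC-27 and -0.01 in Huh-7 cells. Its HepG2 call was lost under ERCC centring. ARMC8 fell by 0.49 in Huh-7 cells alone. RANBP10 and GID8 passed in no line, with differences of -0.02 to 0.17. The effect differed between the 4 lines for RMND5A, RMND5B, ARMC8 and MKLN1 (4 of 10, limma interaction, adjusted p under 0.05), where 34.3% of all genes passed. Without HepG2 melatonin replicate 1 RANBP9 and WDR26 passed as well (6 of 10, 53.7% of all genes).

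For 4 proteins described as bound or marked by the CTLH ligase, 2 genes were called higher in each line. Called lower were 2 in HCT-8, 1 in HGC-27, 2 in Huh-7 and 1 in HepG2 cells (2 without melatonin replicate 1). The shares of all genes called higher and lower were 16.6% and 15.0%, 20.9% and 18.6%, 23.8% and 27.4%, and 3.87% and 3.68% (16.5% and 14.9%) in these lines. HBP1, a transcriptional repressor, was higher in all 4 lines, by 0.48 in HCT-8, 0.42 in HGC-27, 1.03 in Huh-7 and 0.88 in HepG2 cells. NMNAT1, the nuclear NAD-synthesis enzyme, was higher in all 4, by 0.33 in HCT-8, 0.94 in HGC-27, 1.72 in Huh-7 and 0.59 in HepG2 cells. In Huh-7 cells NMNAT1 averaged 5.31 with melatonin and 3.60 in controls (limma adjusted p = 9.62e-07). HMGCS1, the cholesterol-pathway enzyme HMG-CoA synthase, was lower in all 4 lines. It averaged 5.97 with melatonin and 7.40 in controls of HGC-27 cells, a difference of -1.44 (limma adjusted p = 1.46e-06), and differed by -1.41 in Huh-7, -1.10 in HepG2 and -0.52 in HCT-8 cells. ZMYND19 fell by 0.26 in HCT-8 and by 0.61 in Huh-7 cells and differed by -0.38 in HepG2 cells (limma adjusted p = 0.216), where the value without melatonin replicate 1 was -0.21 (limma adjusted p = 0.0286). In HepG2 cells the NMNAT1 call was lost under either centring and that of HBP1 under ERCC centring, as were the HCT-8 calls of HMGCS1 and ZMYND19. These are RNA levels, and the amount of protein was not measured.

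**Figure D4:**
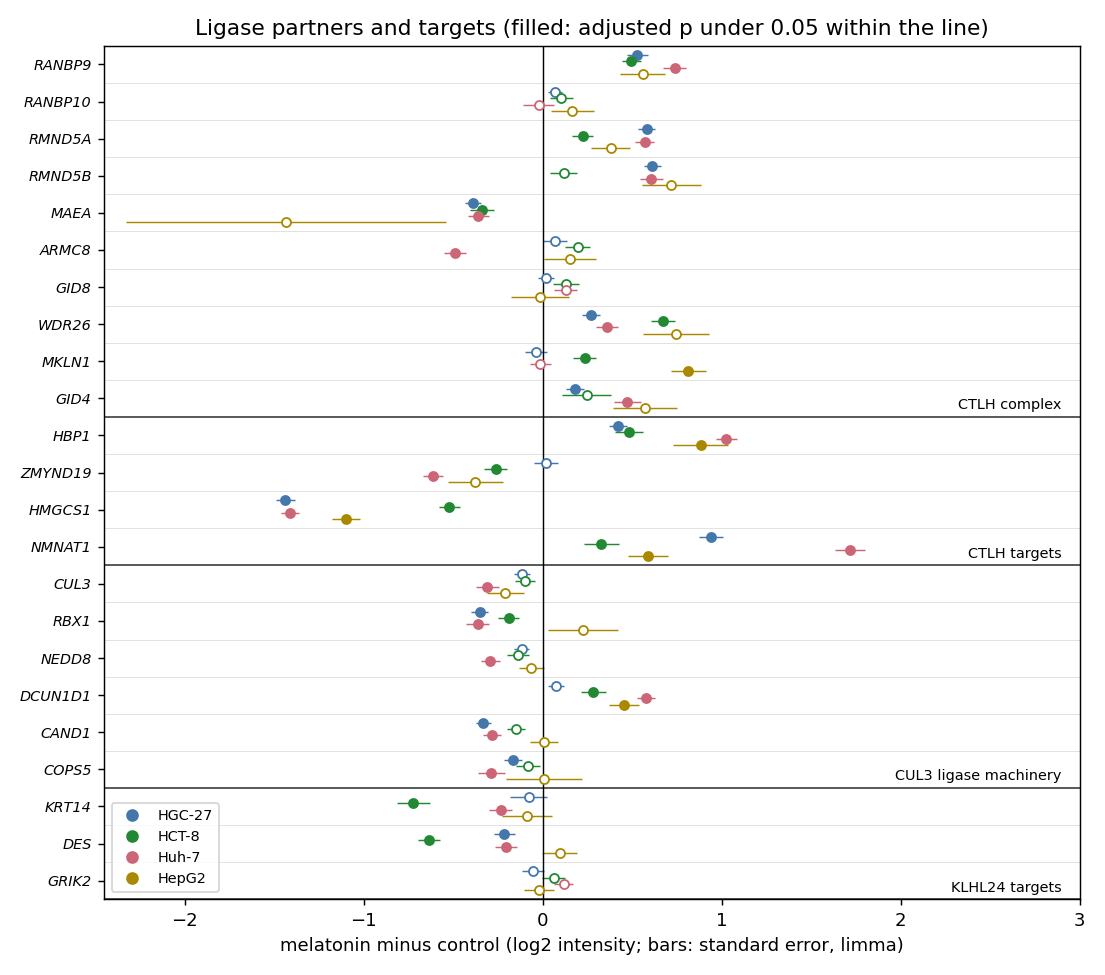
Melatonin minus control (horizontal axis, log2 intensity, with limma standard errors) for the CTLH subunits, CTLH targets, CUL3 ligase genes and KLHL24 targets in 4 lines, filled where the adjusted p was under 0.05 within the line. HMGCS1 lies below 0 in all 4 lines (-1.44 to -0.52) and HBP1 and NMNAT1 above 0, and MAEA has its widest bar in HepG2 cells (standard error 0.89).

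Of the genes of the CUL3 ligase, which KLHL24 serves, most fell in Huh-7 cells and 1, DCUN1D1, rose in more than 1 line. Of 6 CUL3 ligase genes measured, 1 was higher and 1 lower in HCT-8, 0 and 3 in HGC-27, 1 and 5 in Huh-7, and 1 and 0 in HepG2 cells (1 and 2 without melatonin replicate 1). The shares of all genes called higher and lower were 16.6% and 15.0%, 20.9% and 18.6%, 23.8% and 27.4%, and 3.87% and 3.68% (16.5% and 14.9%) in these lines. Both counts of 0 were also 0 at an unadjusted limma p of 5% and with the methods' t-test. CUL3 itself, the scaffold, fell by 0.31 in Huh-7 cells (limma adjusted p = 0.00339) and differed by -0.10 in HCT-8, -0.12 in HGC-27 and -0.21 in HepG2 cells (-0.30 without melatonin replicate 1, limma adjusted p = 0.00704). RBX1, the RING subunit, fell by 0.19 in HCT-8, by 0.35 in HGC-27 and by 0.36 in Huh-7 cells, but with ERCC centring the HCT-8 value turned to 0.05. NEDD8, the modifier that switches cullins on, fell by 0.29 in Huh-7 cells. DCUN1D1, which helps attach NEDD8, rose by 0.58 in Huh-7, 0.45 in HepG2 and 0.28 in HCT-8 cells. CAND1, the exchange factor for cullin adaptors, and COPS5, the protease that removes NEDD8, fell in HGC-27 and Huh-7 cells, by 0.33 and 0.28 for CAND1 and by 0.17 and 0.29 for COPS5. In HepG2 cells COPS5 differed by 0.0047 (limma adjusted p = 0.993), and by -0.24 without melatonin replicate 1 (limma adjusted p = 0.0180). Under ERCC centring the HGC-27 calls of RBX1, CAND1 and COPS5 and the HepG2 call of DCUN1D1 were lost.

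Of 3 known targets of KLHL24, KRT14 and DES fell in HCT-8 and Huh-7 cells, and 0 passed in HepG2 cells with or without melatonin replicate 1. Of all genes 15.0% were called lower in HCT-8, 18.6% in HGC-27 and 27.4% in Huh-7 cells. In HepG2 cells 3.87% were called higher and 3.68% lower (16.5% and 14.9% without melatonin replicate 1). KRT14, the skin keratin, averaged 1.31 with melatonin and 2.03 in controls of HCT-8 cells, a difference of -0.72 (limma adjusted p = 5.28e-04). It fell by 0.24 in Huh-7 cells. In HGC-27 cells it differed by -0.08 and in HepG2 cells by -0.09 (0.03 without melatonin replicate 1). All its group means lay below the lowest array median of 2.13, so its signal was low. DES, the muscle filament desmin, averaged 2.73 with melatonin and 3.37 in controls of HCT-8 cells. It fell by 0.64 there, by 0.22 in HGC-27 and by 0.21 in Huh-7 cells. In HepG2 cells it differed by 0.09 (0.01 without melatonin replicate 1). Its HGC-27 and HCT-8 calls were lost under ERCC centring. GRIK2, a glutamate receptor subunit bound by KLHL24 in rat, passed in no line, with means between 0.72 and 1.57. All these values are RNA levels, and protein amounts were not measured.

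Among 40 other Kelch-like genes, 9 were higher and 1 lower in HCT-8, 14 and 8 in HGC-27, 12 and 10 in Huh-7, and 6 and 0 in HepG2 cells (16 and 2 without melatonin replicate 1). In percent of the 40 genes this was 22.5 and 2.5 in HCT-8 and 35 and 20 in HGC-27 cells. It was 30 and 25 in Huh-7 and 15 and 0 in HepG2 cells. The shares of all genes were 16.6% and 15.0% in HCT-8, 20.9% and 18.6% in HGC-27, and 23.8% and 27.4% in Huh-7 cells. In HepG2 cells they were 3.87% and 3.68% (16.5% and 14.9% without melatonin replicate 1). At an unadjusted limma p of 5%, 1 of the 40 was lower in HepG2 cells, and with the methods' t-test 0 were. The list medians were 0.00, 0.02, -0.01 and 0.15 (0.09) log2 units, while KLHL24 itself differed by 1.64, 1.37, 2.49 and 2.39 (2.20). Of the 40 genes, 9 were higher in at least 3 lines, 0 were lower in at least 3, and 11 passed in none. The same counts over all genes were not made, so nothing is read from these. The largest mean rises were those of KLHL28, IPP and KLHL12. KLHL28 rose by 0.70 in HCT-8, 1.08 in HGC-27, 1.16 in Huh-7 and 1.79 in HepG2 cells (1.52 without melatonin replicate 1). IPP, an actin-binding member, rose by 0.74 in HCT-8, 0.85 in HGC-27 and 1.63 in Huh-7 cells and differed by 0.18 in HepG2 cells (0.34 without the array). KLHL12, the adaptor that marks the vesicle coat protein SEC31, rose by 0.59 in HCT-8, 0.54 in HGC-27 and 1.15 in Huh-7 cells and differed by 0.28 in HepG2 cells (0.46 without the array). The largest Huh-7 difference on this list was that of IPP.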

How the data were processed

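Total RNA of 24 samples was hybridized to a customized PrimeView array with 49495 probe sets, and the authors deposited log2 intensities made with RMA, which subtracts background, equalizes the arrays and sums up the probes of a set. Whether the lines were processed together is not given in the sources used here. Array medians differed between lines, so values were compared within a line. The platform annotation paired 45284 probe sets with 1 gene symbol, 1333 with several and 2878 with none. After 6 control probe sets were left out, 45278 were averaged per gene, as in the methods, to 18244 genes. The number of arrays limits the precision.

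Melatonin was compared with control in each line with limma 3.58.1 (R 4.3.3) and Benjamini-Hochberg adjustment at 5% over the whole gene table. Whether a difference varied with the line was tested by the 3 line-by-melatonin terms of 1 fit over all 24 arrays. Replicate numbers were not used as pairs. The fits were tested on simulated data with known changes. The 6 genes and all lists were chosen with earlier results of these data known. Named are the 6 genes, every gene of the CTLH, target and CUL3 lists, the 3 higher and 3 lower Kelch-like genes called in at least 3 lines with the largest mean difference (none was lower), and the 5 genes nearest to KLHL24, YPEL5 and YPEL3 in their 4 differences. Kelch-like genes nearest in protein sequence were not named, and protein sequences were not used here. Of the lists, UBE2M, HNF4A and MUC5AC were not analysed here, and a further item is not reported here. Promoters are from RefSeq (GRCh38.p14). Tried as alternatives were the brightest probe set of a gene, the replicate number as a block, arrays centred on their ERCC probe set or their median, a further quantile normalization, the fit over all lines, limma with a trend and robust spread, the methods' t-test, only genes above the 25th percentile, and each array left out.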

Additional observations from a re-analysis of the deposited data

Results flagged for a closer look

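The difference between melatonin and control itself differed between the 4 lines for 16 of the named list genes, each by the interaction terms of limma with an adjusted p over all genes, where 34.3% of all genes passed. Of 10 CTLH complex genes these were MKLN1 (adjusted p = 5.05e-06), ARMC8 (0.00167), RMND5B (0.0143) and RMND5A (0.0172). Of 4 genes of CTLH targets they were HMGCS1 (adjusted p = 6.09e-08), NMNAT1 (1.68e-06), HBP1 (0.00358) and ZMYND19 (0.00897). Of 6 CUL3 ligase genes measured they were DCUN1D1 (adjusted p = 8.32e-04), CAND1 (0.00216) and RBX1 (0.0251). Of 3 KLHL24 targets they were DES (adjusted p = 1.18e-04) and KRT14 (0.012). Of the Kelch-like genes only the 3 named for their large mean difference were counted here. All of these passed, IPP (adjusted p = 5.48e-06), KLHL12 (7.25e-04) and KLHL28 (0.00348). All 16 passed without HepG2 melatonin replicate 1 too, where 53.7% of all genes did. HMGCS1, NMNAT1, HBP1 and KLHL28 kept 1 direction in all lines and differed in size, while ARMC8 fell in Huh-7 cells and passed in no other line.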

How the results depend on the processing

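The members kept their direction under the other probe set choice and the other scalings wherever their arrays were apart. Leaving out 1 array could not have turned it there. With 3 arrays per group it also cannot move a difference by more than 1 SD, so nothing is read from that measure. For YPEL3 in HepG2 cells the difference ran from 0.94 to 1.61 without single arrays. Of 120 member values under the other settings, 36 moved by more than 1 SD. These settings include the replicate block, which cannot change a difference here. The median of the 6 genes was 1.11 in HGC-27, 2.16 in Huh-7 and 1.52 in HepG2 cells with the highest-mean probe set. With ERCC centring it was 0.87 in HCT-8, 0.77 in HGC-27, 1.79 in Huh-7 and 1.07 in HepG2 cells, with median centring 0.57 in HGC-27, and with quantile normalization again 0.59 in HCT-8 cells. Without single arrays it was 0.61 to 0.67 in HCT-8, 0.56 to 0.68 in HGC-27, 1.85 to 1.90 in Huh-7 and 1.18 to 1.44 in HepG2 cells. ERCC centring, on 1 probe set of 100, moved the median of all genes to 0.20 in HCT-8, 0.14 in HGC-27, -0.16 in Huh-7 and -0.20 in HepG2 cells. Since the methods name no added ERCC RNA, whether this probe set is a fixed reference is not known.

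HepG2 counts rested on single arrays. Of all genes, 1377 were called there (706 higher, 671 lower). Leaving out single arrays gave 21 to 5721, the highest without melatonin replicate 1, with 1033 and 314 without melatonin replicates 3 and 2, and 21, 31 and 22 without control replicates 1, 2 and 3. CTLH calls there ran from 0 to 7 and Kelch-like calls from 0 to 18. The HepG2 count was 792 with median centring, 533 with the methods' t-test and 5850 in the joint fit, which takes 1 spread for all lines. CTLH calls in HepG2 cells were 7 in the joint fit and 2 with the highest-mean probe set or quantile normalization again. Kelch-like calls there were 17 in the joint fit, 3 with the intensity trend, 2 with the highest-mean probe set, median centring or the t-test, and 1 with ERCC centring. In HGC-27 cells 4323 genes were called with ERCC centring and 4345 in the joint fit, against 7219, and CTLH calls were 3 in the joint fit. In HCT-8 cells CTLH calls were 3 with quantile normalization again. Genes with interaction numbered 6255, and 5556 to 9789 without single arrays, the highest without HepG2 melatonin replicate 1. The causes were not tested.

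The scalings moved the split of calls. With ERCC centring 3645 genes were higher and 246 lower in HCT-8 (3024 and 2734 as deposited), 3532 and 791 in HGC-27 (3817 and 3402), 2690 and 4935 in Huh-7 (4336 and 5004), and 186 and 1217 in HepG2 cells. With median centring they were 3206 and 4607 in HGC-27. Of 60 calls of named list genes, 58 held with median centring and 44 with ERCC centring, where 1 changed direction.

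With the replicate number as a block, 42 genes were called in HepG2 cells, with 0 CTLH and 0 Kelch-like calls, and 5211 in HCT-8, 6815 in HGC-27 and 9118 in Huh-7 cells. Samples of the same number did not deviate together (correlation -0.04 to 0.06 outside HepG2, 0.01 to 0.14 in it), so the numbers were not taken as pairs.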
